A study of Triticum aestivum with 42 samples.

Results

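A set of 595 of the 61179 probe sets on the Affymetrix Wheat Genome Array (0.973%) dipped at 5 weeks in leaves of Harnesk, a winter variety of wheat. Probe sets are groups of short oligonucleotides that together report 1 transcript. A probe set entered the set when 1.5 times the higher of its 2 leaf values at 5 weeks was no more than the lowest of its 4 leaf values at 3 and 9 weeks. The members were thus chosen by the 6 Harnesk leaf arrays, and their leaf values are given as a description without a test. The Harnesk crown arrays, and the leaf and crown arrays of control plants, took no part in the choice.

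Plants of 3 wheat varieties were profiled in leaf and crown on 42 arrays, of which 12 are Harnesk (2 arrays per tissue and week) and 6 are controls (1 array per tissue and week). Harnesk plants were first harvested at 3 weeks, when days of 14 h were kept at 16 °C and nights at 14 °C. At 5 weeks the days lasted 12 h at 14 °C with nights of 10 °C, and at 9 weeks they lasted 9 h at 8 °C with nights of 4 °C. Photosynthetically active radiation, in a unit that was not stated, went from 280 to 185 and then 95. The controls were plants of another winter variety, Solstice, for which light and days declined in the same steps but temperature was held at 16 °C (day) and 14 °C (night), so that variety and temperature differ together between the controls and Harnesk. Each RNA was a pool of several plants, so that the spread behind a p-value is that between pools. Tissue was taken in the middle of the light period, and crown tissue held the apex with some stem below it and immature leaf bases.

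The circadian clock is a network of genes that repress and activate one another over the day and night, and it sets the daily timing of a large part of the plant transcriptome. In Arabidopsis, LATE ELONGATED HYPOCOTYL (LHY) is expressed around dawn, whilst GIGANTEA (GI) and TIMING OF CAB EXPRESSION 1 (TOC1) are expressed later in the day. GI also carries day-length information to CONSTANS (CO), the gene through which long days promote flowering in that species. A tissue sampled once a day reports 1 point on the daily curve of such a gene.

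The deposited values are linear ratios, each probe set having been divided by its own median. Levels of 1 probe set can thus be followed between Harnesk arrays, or between control arrays, but not compared between probe sets. The sources do not state whether Harnesk and control ratios share a scale, so levels cannot be followed from Harnesk to control. Array medians over all probe sets lay between 0.955 and 1.09. Replicate Harnesk arrays had rank correlations of 0.815 to 0.847. The control leaf array of 9 weeks stood apart (its rank correlation with the remaining control leaf arrays averaged 0.101), as did the control crown array of 3 weeks (its log2 values had an interquartile range of 0.781, and those of Harnesk crown 0.338 to 0.505). The tissue labels were checked with 37 probe sets of photosynthesis genes, whose mean log2 level was 0.58 to 0.96 on the Harnesk leaf arrays and -1.21 to -0.94 on the crown arrays. Probe sets of histones and tubulins, 28 in number, averaged -3.08 to -2.79 in leaf and 1.99 to 2.33 in crown.

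In Harnesk leaf the members had median levels of 2.0 and 1.86 on the 2 arrays of 3 weeks. At 5 weeks the medians were 0.72 and 0.707, and at 9 weeks they were 2.1 and 2.07. The depth of the dip, taken as the lowest value at 3 and 9 weeks over the higher value at 5 weeks, had a median of 1.84 and reached 23.0. A depth of at least 2 was met by 241 members. None of the members stood at 0.01, the lowest value in the deposited table, on any Harnesk or control array. At the edge of the rule, Ta.10575.1.A1_at entered with a depth of 1.501 (1.751 and 1.717 at 3 weeks, 1.085 and 1.144 at 5 weeks, 1.849 and 1.773 at 9 weeks), and TaAffx.43423.1.A1_s_at entered at 1.5. Ta.9260.1.A1_x_at, with a depth of 1.499, and Ta.9462.2.S1_at, with 1.496, stayed out.

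The leaf level of many members was not the same at 9 weeks as at 3 weeks. The mean at 9 weeks was at least 1.5-fold above that at 3 weeks for 129 members (21.7%, against 13.1% of all probe sets) and at least 1.5-fold below it for 81 (13.6%, against 10.1%). These are the arrays that chose the members, and the rule takes probe sets that vary between leaf weeks. The shares are thus a description. The mirrored rule, 5 weeks at least 1.5-fold above every value at 3 and 9 weeks, was met by 340 probe sets (0.556%), fewer than the 595 that dipped.

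**Figure D1:**
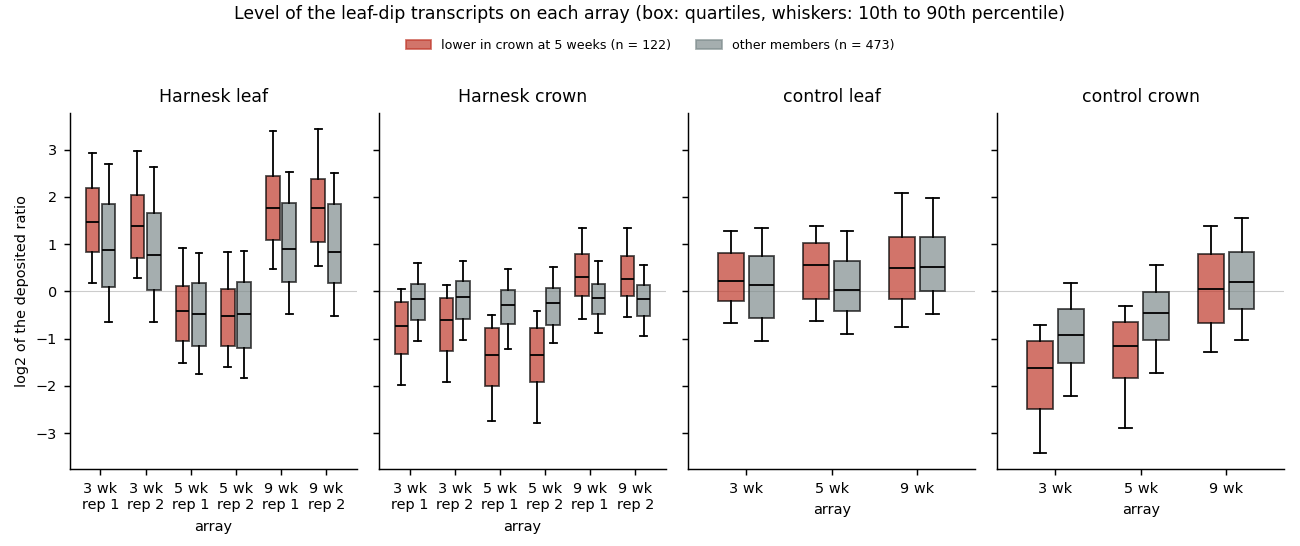
Log2 of the deposited ratio of the 595 members on each of 18 arrays (boxes are quartiles, whiskers the 10th and 90th percentiles). In red are 122 members called lower in crown at 5 weeks than the average of 3 and 9 weeks, and in grey the other 473. The red boxes in Harnesk crown run from medians of 0.599 and 0.652 at 3 weeks to 0.396 and 0.391 at 5 weeks and stand at 1.23 and 1.19 at 9 weeks, whereas in control leaf they stand at 1.16, 1.46 and 1.42. Harnesk and control levels may differ in scale.

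The crown course of the members was tested with limma over all probe sets, as the 5-week mean against the average of the 3- and 9-week means. In crown 122 members (20.5%) were lower at 5 weeks than this average, against 0.659% of all probe sets, and 71 of them (11.9%, against 0.247%) were lower by at least 2-fold. None of the members was higher at 5 weeks (0.427% of all probe sets were), although 21 (3.53%, against 4.87%) were at an unadjusted p below 0.05 and 13 were called higher in quantile-normalised values. The median log2 difference was -0.17 over the members and 0.01 over all probe sets. Among the 122 it was -1.06, and among the other members it was -0.11. In bulk tissue, fewer cells of a type and less RNA per cell cannot be told apart. The spread in this fit is pooled with the leaf arrays, whose values chose the members. In a fit of the 6 crown arrays alone, 182 members (30.6%, against 1.75%) were lower and 6 (1.01%, against 1.97%) were higher, and all of the 122 were again lower. The methods' t-test at 2-fold was run with 3 and 9 weeks joined in 1 group, so that change between those weeks counted as spread. It called 31 members lower without adjustment and 0 after Benjamini-Hochberg adjustment. Without replicate 1 of 5 weeks in crown the count of 122 became 80.

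A low value against the average of 3 and 9 weeks covers 2 courses in crown. All 122 were lower at 5 weeks than at 9 weeks, and 46 (7.73% of the members, against 0.116% of all probe sets) were lower than at 3 weeks too. The other 76 were not lower than at 3 weeks by the test, and their call rested on the comparison with 9 weeks. Both 5-week arrays lay below every other crown array for 101 of the 122. With the crown arrays alone, 74 members (12.4%, against 0.283%) were lower than both weeks and 88 (14.8%, against 0.803%) were lower than 3 weeks. Taken alone, the step from 3 to 5 weeks gave 48 members that fell (8.07%, against 0.327% of all probe sets) and 1 that rose (0.168%, against 0.193%). The riser was Ta.25744.1.S1_at, which is named here after its values were seen. It was also among the 122, as its 5-week level lay below that of 9 weeks. The step from 5 to 9 weeks gave 193 members that were lower at 5 weeks (32.4%, against 2.61%) and 22 that were higher (3.7%, against 4.64%). The leaf rule itself, applied to the 6 crown arrays, was met by 46 members (7.73%) out of 74 probe sets in all (0.121%), and 43 of these 46 were among those lower than both other weeks. The mirrored rule was met in crown by 12 probe sets (0.0196%), of which 0 were members.

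Over the whole crown course, from 3 to 9 weeks, 165 members (27.7%, against 3.57% of all probe sets) rose and 55 (9.24%, against 7.43%) fell. The share that fell was near that of all probe sets. Leaving out any 1 crown array of 3 or 9 weeks brought the 55 to between 17 and 29, and the 165 became 104 without replicate 1 of 3 weeks, 108 without replicate 1 of 9 weeks and 106 without replicate 2 of 9 weeks. Of the 122 members that were lower at 5 weeks, 97 were higher at 9 weeks than at 3 weeks and 3 were lower. The photosynthesis probe sets moved the same way in Harnesk crown, with mean log2 levels of -1.21 and -1.18 at 3 weeks and -1.02 and -0.94 at 9 weeks. Of these 37 probe sets 7 rose while 0 fell in the same fit (at 5 weeks 0 were called in either direction). In control crown, with 1 array per week, the photosynthesis mean fell instead, from -1.22 at 3 weeks to -1.33 at 5 weeks and -1.66 at 9 weeks. The mean leaf level of 278 members (46.7%, against 9.73% of all probe sets) was at least 2-fold above their crown level. The rule, which asks for raised leaf values at 3 and 9 weeks, may set part of this share. The part of leaf-derived RNA in the crown result was not tested.

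**Figure D2:**
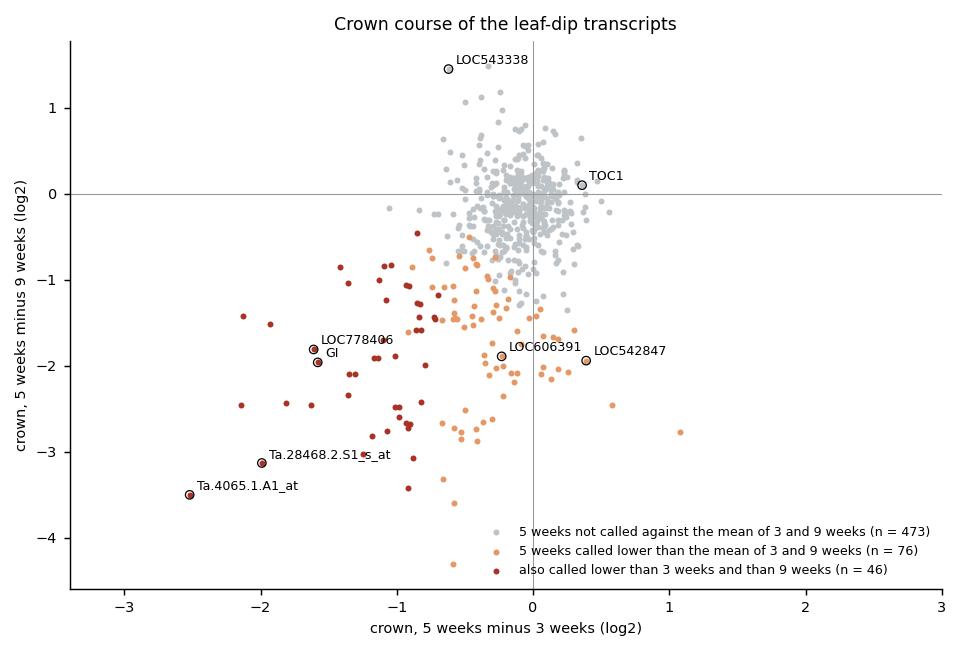
Crown difference of each member between 5 and 3 weeks (x axis, log2) and between 5 and 9 weeks (y axis, log2), with members called against the average of both weeks in orange and those also called against each week in dark red. The 46 dark red points lie in the lower left corner, and the 76 orange points lie below 0 on the y axis without passing the test against 3 weeks in that direction.

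Members were grouped by the depth of their leaf dip, and the share lower in crown was counted in each class. Among 354 members with a leaf depth from 1.5 to below 2, 37 (10.5%) were lower in crown at 5 weeks. The count was 40 of 140 (28.6%) for depths from 2 to below 3, 23 of 64 (35.9%) from 3 to below 5, and 22 of 37 (59.5%) from 5 upwards. The median crown difference in these 4 classes was -0.11, -0.22, -0.5 and -0.92 log2. Leaf and crown arrays were made from separate RNA, but probe sets of 1 transcript cluster are not independent, and the trend is given as a description.

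How leaf stood to crown among the members is given as a description. The leaf mean was above the crown mean at 3 weeks for 77.6% of the members (61.8% of all probe sets), at 5 weeks for 51.8% (59.5%) and at 9 weeks for 80% (54.6%). For 135 members (22.7%, against 3.28% of all probe sets) leaf lay above crown at 3 and 9 weeks but not at 5 weeks, so that the order of the tissues turned over at the middle harvest. A further 306 members (51.4%, against 44.1%) were higher in leaf at all 3 harvests, and 98 (16.5%, against 29.1%) were higher in crown at all 3. The rule chose members by the leaf values on which this pattern rests, so these shares are not independent of the choice.

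The 2 deepest dips belonged to probe sets with no gene symbol. Ta.28468.2.S1_s_at had leaf values of 6.796 and 5.175 at 3 weeks, 0.225 and 0.177 at 5 weeks, and 5.484 and 5.364 at 9 weeks. In crown it read 0.577 and 0.721, then 0.167 and 0.157, then 1.291 and 1.548, so that both 5-week arrays lay below all others in each tissue. The crown difference at 5 weeks was -2.56 log2 (SE 0.15, adjusted p = 2.72e-06). In control leaf the same probe set read 0.832, 1.682 and 1.568, with no dip.

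Ta.22766.1.S1_at had leaf values of 16.32 and 16.48, then 0.604 and 0.41, then 13.2 and 13.38. Its crown values were 0.184 and 0.175 at 3 weeks, 0.15 and 0.128 at 5 weeks, and 0.816 and 0.929 at 9 weeks. The crown contrast passed (-1.51 log2, SE 0.15, adjusted p = 0.00018), yet 5 weeks did not differ from 3 weeks by the test (-0.37, SE 0.17, adjusted p = 1), and the call came from the high level at 9 weeks. Control leaf read 1.067, 3.052 and 2.009, highest at 5 weeks. All 3 probe sets of this transcript cluster on the array were members, with depths of 8.87 to 21.9, and all 3 were lower in crown.

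The largest crown difference was that of Ta.4065.1.A1_at, also without a symbol. Its crown values were 0.75 and 0.842 at 3 weeks, 0.12 and 0.161 at 5 weeks and 1.545 and 1.59 at 9 weeks. The 5-week level was 8.03-fold below the average of the other weeks (-3.01 log2, SE 0.15, adjusted p = 7.12e-07). In leaf it went from 5.101 and 3.883 to 0.156 and 0.186 and back to 4.747 and 4.687. Leaf, well above crown at 3 and 9 weeks, had a mean of 0.171 at 5 weeks, close to the crown mean of 0.141.

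Annotation reached few members. A single gene symbol was attached to 33 of the 595 (5.55%, against 2.08% of all probe sets), covering 24 genes, and TOC1 was recognised besides from the study's list of phase-transition genes. These 34 are described next. Of them 7 were lower in crown at 5 weeks (0.659% of all probe sets were), 0 were higher (0.427%) and 27 passed in neither direction. Under an alternative fit LOC100049032, LOC778415 and Ta.24806.3.S1_at were lower, and LOC543338 was higher in quantile-normalised values. From 3 to 9 weeks in crown 4 of the 34 rose (3.57% of all probe sets did) and 6 fell (7.43%). Leaf lay above crown at every week for 13 (44.1% of all probe sets) and below it at every week for 10 (29.1%), both near the shares of the array.

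GI (Ta.10215.1.S1_at, LOC542970), the only probe set of its transcript cluster, dipped modestly in leaf and deeply in crown. Its leaf values were 2.084 and 1.862 at 3 weeks, 1.057 and 1.084 at 5 weeks, and 1.69 and 1.637 at 9 weeks, a depth of 1.51. Its crown values were 0.754 and 0.781, then 0.246 and 0.269, then 0.987 and 1.018, and the 3 weeks did not overlap. The crown level at 5 weeks was 3.41-fold below the average of 3 and 9 weeks (-1.77 log2, SE 0.10, adjusted p = 2.68e-06). It was lower than at 3 weeks (-1.58, SE 0.12, adjusted p = 3.62e-05) and than at 9 weeks (-1.96, SE 0.12, adjusted p = 8.56e-07), whereas 9 against 3 weeks did not pass (0.39, SE 0.12, adjusted p = 0.0606, and 0.00903 to 0.28 over the limma alternatives). The controls did not dip: leaf read 1.071, 1.478 and 1.338, and crown read 0.3, 0.422 and 0.624.

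TOC1, a pseudo-response regulator of the clock in Arabidopsis, entered with 1 of its 5 probe sets. Ta.12422.3.S1_a_at had leaf values of 1.075 and 0.896, then 0.588 and 0.566, then 1.02 and 0.941. A second one, Ta.12422.1.S1_at, had low leaf values of 0.541 and 0.561 at 5 weeks but missed the rule because 1 array of 3 weeks read 0.681. The other 3 had depths of 0.765 to 0.823. In crown Ta.12422.3.S1_a_at read 0.789 and 0.905, then 1.068 and 1.107, then 0.997 and 1.033, so that its 5-week values were the highest, and the difference did not pass (0.23 log2, SE 0.12, adjusted p = 0.641). Its control leaf values of 0.215, 0.169 and 0.213 were lowest at 5 weeks, by 1.26-fold.

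LHY, not a member, ran the opposite course in Harnesk leaf. Ta.27013.1.S1_at read 0.98 and 1.103 at 3 weeks, 4.831 and 4.692 at 5 weeks, and 2.762 and 2.568 at 9 weeks. Ta.7524.1.A1_at read 1.118 and 1.026, then 3.907 and 4.024, then 1.148 and 1.002. Both met the mirrored rule. Control leaf read 1.239, 0.941 and 1.843 for the first and 2.003, 1.618 and 3.078 for the second, each lowest at 5 weeks. In crown the first was higher at 5 weeks (1.03 log2, SE 0.11, adjusted p = 0.000325), and the second missed the threshold there (0.49, SE 0.11, adjusted p = 0.0756, and 0.00489 to 0.816 over the limma alternatives) and fell from 3 to 9 weeks (-0.98, SE 0.13, adjusted p = 0.000514). The remaining probe sets of the photoperiod list, 12 of 16 once GI, the TOC1 member and LHY are set aside, met neither rule in leaf and were not called in crown in either comparison. They belong to the photoreceptor genes CRY, PHYA and PHYC, to ELF3, ESD4 and CO, and to the other TOC1 probe sets.

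**Figure D3:**
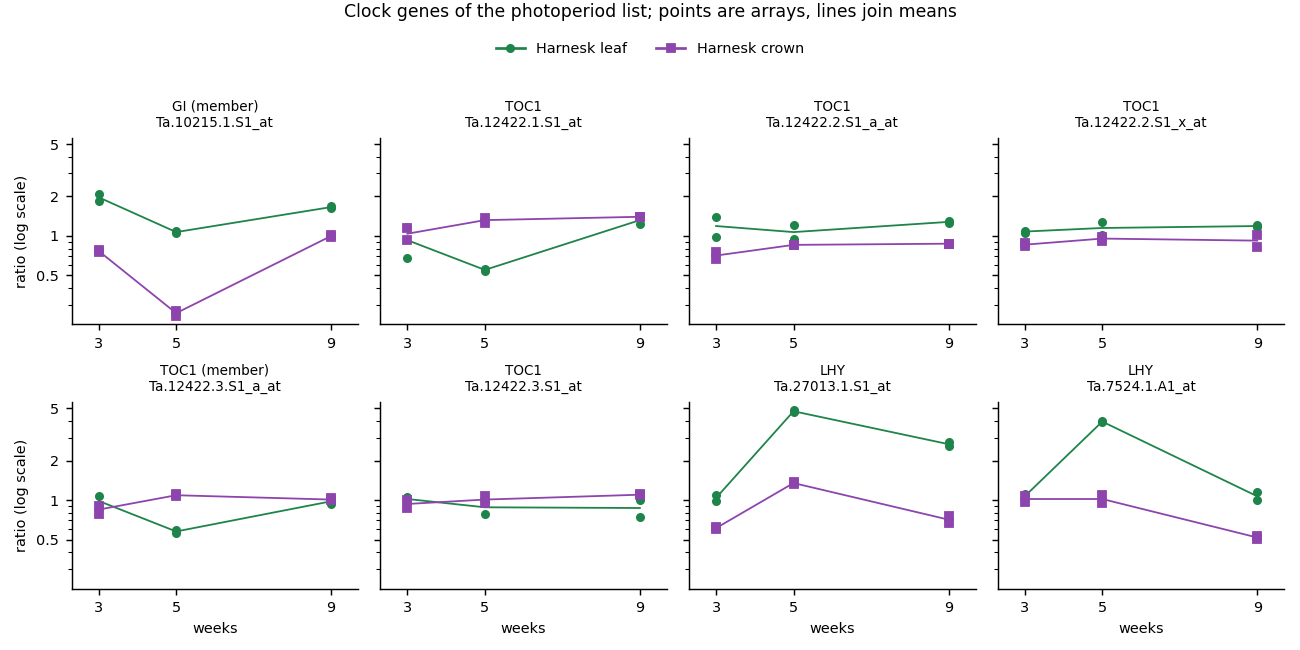
Deposited ratio (log scale) of the GI, TOC1 and LHY probe sets in Harnesk leaf (green) and crown (purple) at 3, 5 and 9 weeks, with a point per array and lines through the means. GI is lowest at 5 weeks in both tissues (1.07 in leaf, 0.258 in crown), while both LHY probe sets are highest there in leaf (4.76 and 3.97).

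LOC778406 (TaAffx.122374.1.A1_at) was also lower at 5 weeks in both tissues. Its leaf values were 2.235 and 1.88, then 0.631 and 0.994, then 3.239 and 2.925. Its crown values were higher throughout, 4.495 and 4.253 at 3 weeks, 1.289 and 1.589 at 5 weeks and 5.363 and 4.712 at 9 weeks. The crown difference was -1.71 log2 (SE 0.17, adjusted p = 0.000215), and 5 weeks was lower than 3 weeks (-1.61, SE 0.20, adjusted p = 0.00174) and than 9 weeks (-1.81, SE 0.20, adjusted p = 0.000129). Control leaf read 1.427, 0.79 and 0.617, lower at each later harvest.

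LOC606369 was represented by 4 probe sets of 1 transcript cluster, all of them members. Ta.24806.1.S1_x_at read 1.083 and 1.098, then 0.439 and 0.397, then 1.483 and 1.552 in leaf. In crown it read 0.941 and 0.988, then 0.521 and 0.546, then 1.327 and 1.243, with no overlap between weeks. The crown difference was -1.06 log2 (SE 0.10, adjusted p = 0.000175), with 5 weeks below 3 weeks as well (-0.85, SE 0.12, adjusted p = 0.0048). Its rise in crown from 3 to 9 weeks (0.41, SE 0.12, adjusted p = 0.0437) ended in 8 of 11 limma alternatives, among them any 1 crown array left out. Ta.24806.2.S1_a_at (-0.87, adjusted p = 0.00199) and Ta.24806.2.S1_at (-0.49, adjusted p = 0.0471) were lower too, but the second call ended with centring, a filter on low values, the replicate block or any 1 crown array left out. Among the limma fits that held it, the first ended without replicate 1 of 5 weeks in crown (adjusted p = 0.0847). Ta.24806.3.S1_at had -0.33 (adjusted p = 0.346). The 4 probe sets had control leaf values at 5 weeks of 0.643 to 0.856, each lower than at 3 and 9 weeks by 1.06- to 1.42-fold.

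In LOC606391 and LOC542847 the crown call came from 9 weeks alone. LOC606391 (Ta.12663.1.S1_at) had leaf values of 6.411 and 6.958, then 2.052 and 1.889, then 12.77 and 12.78, and in crown it read 0.291 and 0.327, then 0.256 and 0.271, then 1.134 and 0.842. It rose 3.17-fold in crown from 3 to 9 weeks (1.66 log2, SE 0.15, adjusted p = 1.8e-05). LOC542847 (Ta.2882.1.S1_s_at) read 2.142 and 2.26, then 0.728 and 0.691, then 2.761 and 2.992 in leaf. In crown it read 0.511 and 0.507, then 0.666 and 0.668, then 2.543 and 2.563, a rise of 5.02-fold from 3 to 9 weeks (2.33 log2, SE 0.12, adjusted p = 8.25e-08). Neither was lower at 5 weeks than at 3 weeks in crown (-0.23, adjusted p = 1, and 0.39, adjusted p = 0.402). The difference of LOC542847 at 5 weeks (-0.77 log2, SE 0.10, adjusted p = 0.00172) no longer passed without replicate 1 of 5 weeks in crown (adjusted p = 0.0513). In control leaf LOC542847 read 2.375, 2.67 and 0.724, and LOC606391 read 1.387, 2.491 and 0.925, both highest at 5 weeks.

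LOC543383 (Ta.2148.1.S1_x_at) combined a shallow dip with a steep end point. Leaf values were 1.92 and 2.052, then 1.103 and 1.179, then 13.93 and 13.9, so that 9 weeks stood 7.01-fold above 3 weeks. In crown it rose from 0.354 and 0.358 to 0.694 and 0.663 between 3 and 9 weeks (0.93 log2, SE 0.12, adjusted p = 0.000289) with no call at 5 weeks (-0.17, SE 0.10, adjusted p = 0.732). In control leaf it read 1.024, 1.446 and 0.894.

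LOC543338 (Ta.9320.1.S1_x_at) went opposite ways in the 2 tissues after 5 weeks. Leaf read 1.383 and 1.041, then 0.559 and 0.543, then 1.901 and 2.333. Crown read 2.276 and 2.71, then 1.712 and 1.523, then 0.631 and 0.555, a fall of 4.2-fold from 3 to 9 weeks (-2.07 log2, SE 0.17, adjusted p = 6.71e-06). On the control arrays it was highest at 9 weeks in both tissues, at 10.72 in leaf and 6.387 in crown. Of the other annotated members that fell in crown, 3 were the probe sets of LOC780670 (-0.60 to -0.40 log2, adjusted p = 0.00972 to 0.0474), with crown means of 1.31 to 1.45 at 3 weeks and 0.961 to 0.996 at 9 weeks. LOC543463 (-0.54, adjusted p = 0.0109) and LOC100049049 (-0.42, adjusted p = 0.0499) also fell. Each of these 5 calls ended when single crown arrays were left out, with highest adjusted p-values of 0.0991 to 0.495.

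LOC100049032 (Ta.8614.1.S1_at) had the deepest leaf dip among the annotated members, 3.86, and dipped in control leaf as well. Harnesk leaf read 3.713 and 3.531, then 0.914 and 0.419, then 3.543 and 3.78. Control leaf read 3.488, 0.764 and 1.353. In crown it read 0.733 and 0.733, then 0.454 and 0.432, then 0.554 and 0.495, and the difference passed only in the fit of the crown arrays alone (-0.48 log2, SE 0.22, adjusted p = 0.586 with all 18 arrays and 0.0132 with the crown arrays alone).

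Only 2 of the symbols carry a further gene name, and both are chromatin proteins. Hmgb3 (LOC543333), a high mobility group box protein, entered with Ta.30768.3.S1_x_at (leaf means of 0.589, 0.337 and 0.707) and Ta.30768.1.S1_x_at (0.533, 0.326 and 0.716). The third probe set of that cluster, without a symbol, was a member too. In crown both stood above leaf at every week, at 1.13 to 1.33, and neither was called at 5 weeks (-0.08, adjusted p = 0.949, and -0.13, adjusted p = 0.912). The histone gene H2A-9 (LOC732714, Ta.27657.14.S1_s_at) had leaf values of 0.031 and 0.038, then 0.019 and 0.019, then 0.041 and 0.045. These are small fractions of its crown values of 6.351 to 8.06, where 5 weeks did not differ by the test (0.08, SE 0.12, adjusted p = 0.962). In control crown H2A-9 read 149.7 to 202.9, far above Harnesk crown, and the sources do not state whether the control and Harnesk ratios share a scale. Of the 28 histone and tubulin probe sets it was the 1 member. Its transcript cluster has 14 probe sets on the array, and no other entered the set. Ta.27657.14.S1_x_at, also of H2A-9, had a leaf depth of 1.0, and further H2A-9 probe sets had depths of 0.412 to 0.613. The leaf values of 0.019 stood little above 0.01, the lowest deposited value.

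The remaining annotated members passed neither crown test and had leaf depths of 1.53 to 2.36. LOC543153 had 2 probe sets with leaf means of 1.36, 0.568 and 1.93 and of 1.2, 0.522 and 1.66, beside crown means of 0.784 to 1.00. LOC542879 and LOC100037642, on the same transcript cluster, had leaf means of 5.26, 1.81 and 4.19 and of 4.23, 1.54 and 2.98, against 0.557 to 0.619 in crown. LOC780609, LOC543236 and LOC543357 were higher in crown than in leaf at every week, with crown means of 1.27 to 1.9. LOC542793, with 3 probe sets at leaf depths of 1.53 to 1.8, is described below with the controls. LOC778415, LOC778419, LOC606307 and LOC543461 complete the list, with leaf means at 5 weeks of 0.725 to 0.997 and leaf depths of 1.53 to 1.63.

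**Figure D4:**
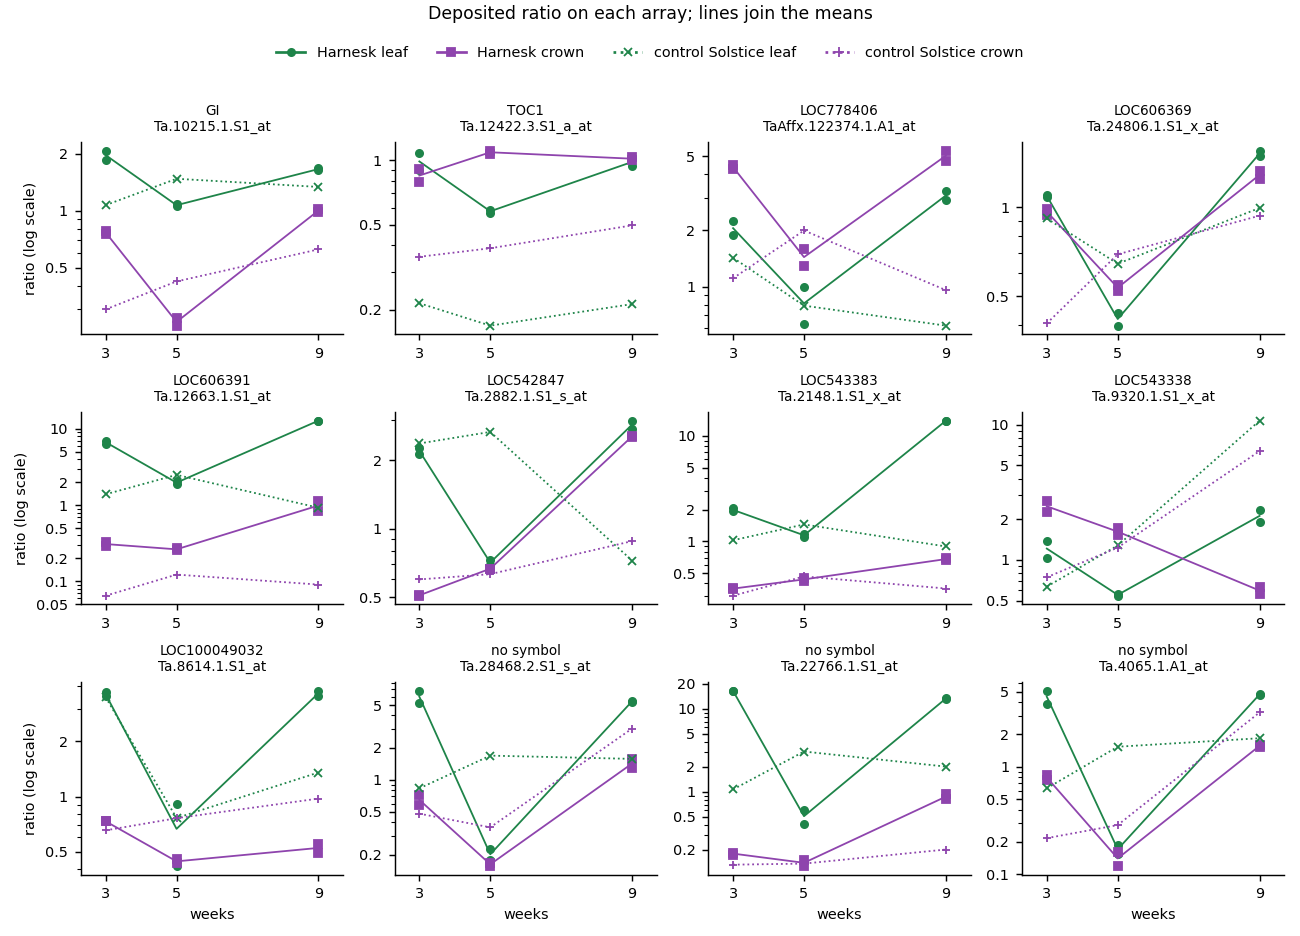
Deposited ratio (log scale, its range differs between panels) of 12 members at 3, 5 and 9 weeks in Harnesk leaf and crown (filled points, 2 arrays a week) and in control Solstice leaf and crown (crosses, 1 array a week), with lines through the means. Harnesk and control levels may differ in scale. GI, LOC778406, LOC606369, Ta.28468.2.S1_s_at and Ta.4065.1.A1_at are lowest at 5 weeks in both Harnesk tissues, whereas crown of LOC606391 and LOC542847 is highest at 9 weeks and not lower by the test at 5 weeks than at 3 weeks.

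The control plants give the course of the same transcripts under shortening days at steady temperature, with 1 array per week and so no test. In control leaf 36 members (6.05%, against 2.2% of all probe sets) were at least 1.5-fold below both other weeks at 5 weeks, and 15 (2.52%, against 1.02%) were at least 1.5-fold above both. The median difference of 5 weeks from the average of the other weeks was -0.25 log2 over the members and -0.01 over all probe sets. This shift in the median rested on the 9-week array that stood apart. Without that array, the median difference between 5 and 3 weeks was 0.02 over the members and -0.01 over all probe sets. Against 3 weeks alone, 72 members (12.1%, against 5.83%) were at least 1.5-fold lower at 5 weeks and 59 (9.92%, against 2.77%) at least 1.5-fold higher. The 9-week array read at least 1.5-fold above the 5-week array for 264 members (44.4%, against 22.9%).

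Of the 36 members that dipped in control leaf, 4 were also among the 122 that were lower in Harnesk crown. Of the 15 members that stood highest at 5 weeks in control leaf, 5 were among the 122. These overlaps made up 0.672% and 0.84% of the members, against 0.0556% and 0.0245% of all probe sets. Both shares contain the crown call, which was itself more frequent among the members (20.5%, against 0.659%). Of all 403 probe sets lower in crown, 34 dipped and 15 stood highest at 5 weeks in control leaf. The shares thus do not show an excess of either course among the 122. The 122 had a median control leaf difference at 5 weeks of 0.02 log2, against -0.30 for the other members. Of the 34 annotated members 5 dipped by at least 1.5-fold in control leaf (2.2% of all probe sets did): LOC100049032, LOC542879 and the 3 probe sets of LOC542793. For LOC542793, Ta.28131.1.S1_x_at read 2.118, 1.03 and 2.498 in control leaf and 1.59 and 1.368, then 0.808 and 0.635, then 2.112 and 2.319 in Harnesk leaf. Ta.28131.1.S1_at read 1.972, 0.986 and 1.653 in control leaf, and Ta.233.1.S1_at read 1.396, 0.77 and 1.343. All 3 had crown differences of -0.28 to -0.07 log2 that did not pass (adjusted p = 0.804 to 0.969).

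In control crown the members lay at successively higher levels, with medians of 0.479 at 3 weeks, 0.662 at 5 weeks and 1.14 at 9 weeks, whereas the medians over all probe sets were 0.995, 1.01 and 0.983. At least a 1.5-fold dip at 5 weeks was seen in 10 members (1.68%, against 0.278% of all probe sets). The 9-week value was at least 1.5-fold above that of 5 weeks for 325 members (54.6%, against 9.45%) and at least 1.5-fold below it for 19 (3.19%, against 6.18%). This comparison leaves out the 3-week array with the wide spread but uses the 9-week array, whose rank correlation with the other control crown arrays was lowest. Against 3 weeks, 431 members (72.4%, against 21.7%) were at least 1.5-fold higher at 9 weeks.

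**Figure D5:**
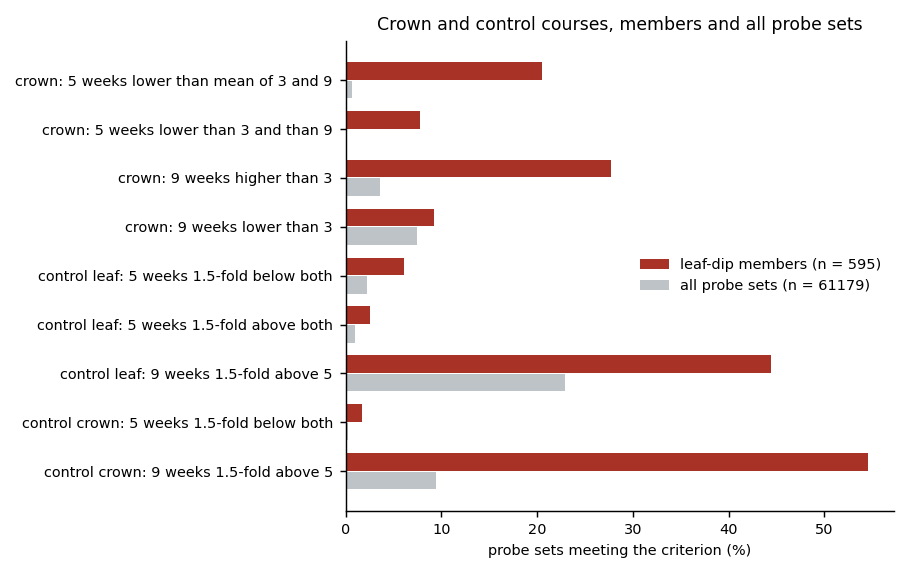
Share of the 595 members (red) and of all 61179 probe sets (grey) that met each criterion, in percent, for the tested crown differences and for 1.5-fold differences between single control arrays. In crown 20.5% of the members were lower at 5 weeks against 0.659% of all, and the control crown rise after 5 weeks was met by 54.6% against 9.45%.

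The members were spread over 466 transcript clusters, of which 386 contributed 1 member. The other 80 contributed 209 probe sets, and in 38 of these clusters every probe set on the array was a member. The 122 members lower in crown came from 94 clusters. Of 3 clusters chosen after their values were seen, Ta.12530 had 5 of 5 probe sets in the set with depths of 3.44 to 7.35, and 3 of them were lower in crown. Ta.14053 and Ta.385 also had 5 of 5, with depths of 1.51 to 1.94 and 1.88 to 2.37, and 0 of them were called in crown. Identifiers of probe sets that can bind more than 1 transcript made up a larger share of the members than of the array: 116 members (19.5%, against 11.1%) end in x_at and 53 (8.91%, against 4.31%) in s_at, so that near-identical copies of a gene may share a signal. Identifiers starting with TaAffx made up 25.9% of the members and 48.5% of the array.

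The lists of other pathways are short, and with 0.973% of all probe sets in the set a count of 0 in them is near the background. Among the probe sets that the study assigned to the gibberellin pathway (6), the autonomous pathway (8), vernalisation (8), and floral integration and meristem identity (7), and to its MADS-box genes (30), 0 were members. The same held for gene symbols of photosynthesis (37 probe sets), cold acclimation (5), oxidative stress (9), defence (8), gibberellin (4), and sugar and fructan metabolism (8). In the photoperiod list 2 of 16 were members, GI and TOC1.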

How the data were processed

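Transcript levels in wheat leaf and crown were measured on Affymetrix Wheat Genome Arrays. The authors normalised each chip by RMA (version not given in the sources used here) and divided each probe set by its median in GeneSpring, and the deposited values are such ratios on a linear scale. The ratios carry no brightness, so signal over background is unknown, and 2 arrays per group limit the precision. After 111 control probe sets were left out, log2 ratios of the 12 Harnesk and 6 control arrays were fitted in limma 3.58.1 (R 4.3.3), with Benjamini-Hochberg adjustment over 61179 probe sets and calls at an adjusted p below 0.05. The controls, 1 array each, add no spread to that fit. Tables and figures were made with Python 3.11.15, pandas 2.3.3, numpy 2.4.6 and matplotlib 3.10.9. The fit was also run on simulated data with independent noise for each probe set, which is not used as support here.

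The members, gene lists and tests were chosen with earlier results of these data known. Named are all members with 1 gene symbol or on the study's lists, the 2 deepest leaf dips without a symbol, the 2 largest called crown differences in each direction without a symbol, members at the threshold, and genes of the fixed lists that passed a crown test where they bear on a member. Symbols came from the platform annotation (1273 probe sets have 1 symbol) and were looked up in RefSeq (assembly IWGSC CS RefSeq v2.1), where 1272 of them matched. The 24 arrays of vernalised Solstice and of Paragon were not used for named probe sets, because their values do not follow the identifier column, and 0 columns lacked a sample. In the 18 arrays used, adjacent probe sets of 1 transcript cluster correlated at 0.555 to 0.734 and other neighbours at 0.048 to 0.104. Alternatives were quantile normalisation, centring, a filter on low ratios, a variance trend, crown arrays alone and a replicate block. Further alternatives were single arrays left out and the methods' t-test, with 3 and 9 weeks joined in 1 group for the 5-week contrast. Those that set 5 weeks against 3 or 9 weeks alone in crown, and control crown without 3 weeks, were chosen after seeing the data.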

Additional observations from a re-analysis of the deposited data

Results flagged for a closer look

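LOC606391 (Ta.12663.1.S1_at) was lower at 5 weeks on both Harnesk leaf arrays, whereas control leaf stood 1.8-fold above the nearest other week at 5 weeks. Ta.22766.1.S1_at was likewise lower at 5 weeks in Harnesk leaf and 1.52-fold above the nearest other week in control leaf. Opposite directions in Harnesk and control leaf drew attention to both. The difference between Harnesk and control was not tested, since each control week has 1 array, and variety and temperature cannot be told apart in it.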

How the results depend on the processing

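The 595 members became 1206 when 3 and 9 weeks had to be only 25% higher, 241 with a 2-fold rule, 433 after quantile normalisation (401 of the 595 kept) and 547 after centring (529 kept). With 1 leaf array left out the count was 639 to 941, highest without replicate 2 (941) or 1 (905) of 5 weeks, and all 595 were kept each time because a rule on fewer arrays is easier to meet. In crown, the 122 members lower at 5 weeks became 77 without the 20% lowest mean ratios, 31 by the methods' t-test (0 after adjustment), 48 against 3 weeks alone, 193 against 9 weeks alone, and 80 to 108 with 1 crown array left out. The 0 higher members became 13 after quantile normalisation, 6 with crown arrays alone, 1 against 3 weeks alone and 22 against 9 weeks alone, and stayed at 0 with 1 array left out (0 to 0). From 3 to 9 weeks, the 55 that fell became 84 with crown arrays alone, 11 by the methods' t-test (0 after adjustment) and 17 to 47 with 1 array left out. The 165 that rose became 99 without the 20% lowest mean ratios, 72 by the methods' t-test (2 after adjustment) and 104 to 149 with 1 array left out. Control leaf dips went from 36 to 72 for 5 against 3 weeks only, and control crown dips from 10 to 18 after quantile normalisation, while 325 members were higher at 9 than at 5 weeks. H2A-9 (Ta.27657.14.S1_s_at), not called from 3 to 9 weeks in crown (-0.19 log2), read 0.58 after quantile normalisation. The cause of these shifts was not tested. For the 5-week contrast the methods' t-test joined 3 and 9 weeks in 1 group, so change between those weeks counted as spread. Same-numbered arrays did not deviate together (correlations of -0.0942 to 0.0707 over 15 pairs of conditions), so they share only a number. The replicate block gave 116 members lower and 0 higher at 5 weeks, and 52 that fell and 159 that rose from 3 to 9 weeks. Of 11 named probe sets called at 5 weeks in crown, 8 kept the call in every limma alternative that held them, and of 14 called from 3 to 9 weeks, 8 did. GI was called at 5 weeks in 11 limma alternatives (adjusted p = 9.28e-07 to 0.000324), was left out by the filter on low ratios, and like every member was not called by the methods' t-test after adjustment.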

Other observations

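The leaf arrays of vernalised Solstice and of Paragon, a spring variety, hold rows that cannot be tied to probe sets here, but rows that met the same rule could be counted, an alternative chosen after seeing the data. Of 61290 rows, 538 (0.878%) dipped in Solstice leaf and 44 (0.0718%) in Paragon leaf. The mirrored rule was met by 395 rows in Solstice leaf and 24 in Paragon leaf. In crown the rule was met by 39 rows (0.0636%) in Solstice and 143 (0.233%) in Paragon. Whether any of these rows are the members described for Harnesk is not known.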
